A study of Mus musculus with 6 samples.

Results

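The Serpina1 and Serpina3 clusters of mouse chromosome 12 hold the genes of α1-antitrypsin and of the inhibitors related to human α1-antichymotrypsin. The 10 liver-expressed members described here were taken by name from a table of 55487 genes: Serpina1a, Serpina1b, Serpina1c, Serpina1d and Serpina1e, and Serpina3c, Serpina3g, Serpina3k, Serpina3m and Serpina3n. Bulk liver RNA was sequenced from 6 wild-type male C57BL/6J mice kept on chow, of which 3 were injected subcutaneously with GalNAc-siNC, a control siRNA, and 3 with GalNAc-siRnf10, an siRNA against Rnf10. Livers were collected at 17 weeks of age, with 1 library per mouse, and all libraries carried the same batch label. GalNAc is a sugar ligand that carries an siRNA into hepatocytes, and RNF10 is an E3 ubiquitin ligase. The labels name 1 siRNA against Rnf10 and give no dose.

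Serpins are secreted or intracellular proteins that trap proteases. An exposed reactive centre loop serves as bait, and once the protease cuts it, enzyme and inhibitor stay locked together. α1-Antitrypsin is made mainly by hepatocytes and is the chief plasma inhibitor of neutrophil elastase. Humans carry a single functional gene for it, whereas mice carry several near copies that differ in the loop. The Serpina3 genes of the mouse were likewise multiplied from an ancestor of α1-antichymotrypsin, an inhibitor of chymotrypsin-like proteases and a plasma protein of the acute phase response.

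Library totals lay between 26854377 and 33058645 counts, and 14046 genes passed the filter on low counts and were tested. A normalized count is a gene's count divided by the effective size of its library and multiplied by the mean effective size over the 6 libraries. Differences were tested with the quasi-likelihood F-test of edgeR, p-values were adjusted over all tested genes by the Benjamini-Hochberg method, and a gene was called at an adjusted p under 0.05. Rnf10 itself fell, with a log2 fold change of -1.22 (standard error 0.0715). Of 6 hepatocyte markers, Alb, Ttr, Cps1 and Cyp2e1 were called higher, and Apoa1 and Asgr1 were not called. The summed normalized count of all 6 ranged from 1673990 to 1783170 with GalNAc-siNC and from 2485290 to 2569260 with GalNAc-siRnf10. Alb carried most of this rise, with a mean of 1159040 with GalNAc-siNC and 1805570 with GalNAc-siRnf10. Apoa1 and Asgr1 had log2 fold changes of 0.084 and 0.11. Of 8 neutrophil markers only S100a9 was tested, and it was called lower. The 8 summed to between 40.9 and 72.1 with GalNAc-siNC and between 23.4 and 33.5 with GalNAc-siRnf10, and Mpo and Ly6g had at most 2 counts in any library. S100a9 (mean 38.2 with GalNAc-siNC against 14.1) and S100a8 (11.6 against 4.77) carried the lower sum. At low counts, Ly6g, Retnlg and Camp were lower too. Ngp (0.58 against 3.49), Cxcr2 (3.85 against 4.38) and Mpo (0.58 against 0.75), also at low counts, were higher. Summed markers were higher in every GalNAc-siRnf10 mouse for sinusoidal endothelium (2 of 5 called, 1679 to 1685 against 1742 to 1845), stellate cells (2 of 5 called, 2551 to 2614 against 3018 to 3047) and pancreas (1 of 7 called and 3 at 0 in every mouse, 472 to 699.6 against 872 to 933), and lower for cholangiocytes (none of 4 called, 175 to 249.6 against 150.3 to 171). Those of Kupffer cells, T and NK cells and B cells overlapped between the groups. Log2 fold changes of tested markers had both signs for sinusoidal endothelium, stellate cells, Kupffer cells and B cells. They were all positive for hepatocytes and pancreas and all negative for cholangiocytes. Dcn (log2 fold change 0.36) and Reln (0.35) carried the higher stellate sum while Lrat (-0.27), Des (-0.20) and Col1a1 (-0.26) were not called, and Stab2 of the endothelial list was at -0.26 and not called. The part of these differences in the results was not tested. GalNAc-siNC mouse 1 stood apart from the other controls, with a chi-square per gene of 30.7 and 30.0 against mouse 2 and mouse 3, where these 2 differed by 10.3 and the treated mice by 4.70 to 5.37. Without it, 2864 genes were called in place of 1965.

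The members that changed moved in opposite directions in the 2 clusters. Serpina1a, Serpina1b, Serpina1c and Serpina1d rose in the livers of GalNAc-siRnf10-treated mice by 15.8% to 35.7%, and Serpina3n and Serpina3m fell by 40.3% and 26.5%. The most abundant gene of each cluster, Serpina1e and Serpina3k, was not called. Serpina3c and Serpina3g, with fewer than 50 normalized counts in every mouse, were not called either. In all, 4 of the 10 members were called higher and 2 lower, where 14.0% of all tested genes were called, 6.71% higher and 7.28% lower. The groups did not overlap for 8 members, 5 higher and 3 lower, against 32.8% of all tested genes, 16.5% higher and 16.4% lower. All 10 members passed the filter. Without GalNAc-siNC mouse 1, the same 4 members were called higher, with log2 fold changes of 0.21 to 0.31, and Serpina1e was called lower beside Serpina3m (-0.41) and Serpina3n (-0.71). In bulk liver, a smaller number of cells of a type and less RNA per cell cannot be told apart.

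**Figure D1:**
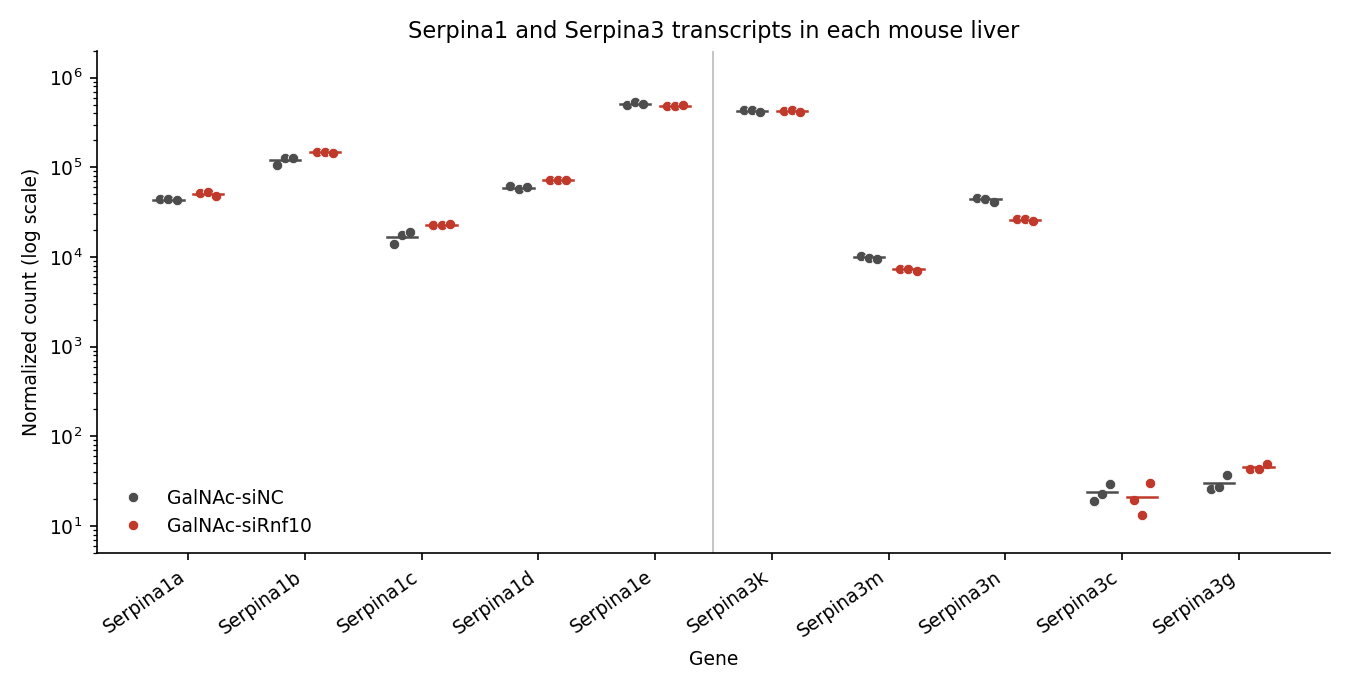
Normalized count of each member in each mouse, on a log scale, with GalNAc-siNC in grey and GalNAc-siRnf10 in red; each point is 1 mouse and each line the mean of 3. Serpina3n lay between 41100 and 46002 with GalNAc-siNC and between 25377 and 26558 with GalNAc-siRnf10, whereas the Serpina3k points of the groups overlapped.

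The 5 Serpina1 genes are near copies, so their reads had to be told apart before their values could be read. Their coding sequences were 96.3% to 98.5% identical, and Serpina1a and Serpina1c were the closest pair, with 19 differing bases. Identities here and below count aligned bases only and leave out gaps. Over the coding sequence, the 75-base window with the most variable positions held 19 of them, against a median of 4 per window, and it codes for the reactive centre loop, which is why it is shown. The window lies in exon 6 of the Serpina1a transcript and in exon 5 of the others, on the minus strand of GRCm38 at chr12:103853744-103853818 for Serpina1a, chr12:103728311-103728385 for Serpina1b, chr12:103895081-103895155 for Serpina1c, chr12:103763749-103763823 for Serpina1d and chr12:103947087-103947161 for Serpina1e. Each line reads 5′ to 3′ along the coding strand, and capitals mark the positions at which the 5 genes are not all alike.
Serpina1a: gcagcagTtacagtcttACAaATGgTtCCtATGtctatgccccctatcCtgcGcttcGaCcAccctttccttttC
Serpina1b: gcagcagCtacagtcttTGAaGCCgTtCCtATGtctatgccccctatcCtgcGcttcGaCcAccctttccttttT
Serpina1c: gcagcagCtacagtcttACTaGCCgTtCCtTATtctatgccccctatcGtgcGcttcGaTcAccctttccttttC
Serpina1d: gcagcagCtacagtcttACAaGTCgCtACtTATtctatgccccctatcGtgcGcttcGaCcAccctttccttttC
Serpina1e: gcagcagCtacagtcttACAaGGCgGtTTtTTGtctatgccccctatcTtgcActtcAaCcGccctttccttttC

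Reads were 150 bases long, so every 150-base window of the annotated transcripts was compared with the transcripts of all other genes. Of the windows of Serpina1e, 92.6% occurred in no other gene, and the share was 88.1% for Serpina1b, 76.7% for Serpina1d, 64.9% for Serpina1a and 40.3% for Serpina1c. Serpina1a and Serpina1c had 612 windows in common. In the Serpina3 cluster, 99.7% of the windows of Serpina3k and of Serpina3m were unique, and 100% of those of Serpina3n and Serpina3c. A gene of the table without a symbol, ENSMUSG00000118588, is in no transcript of GENCODE M21 and was compared by its exon positions. It held 1021 windows of Serpina3g on the same strand, which left 55.8% in no other gene. How the authors' count treated a read that matches more than 1 gene is not given in the sources used here, so the split between Serpina1a and Serpina1c is uncertain. Serpina1c carried another limit, because 429 bases of its exons (31.5%) overlap B430119L08Rik on the opposite strand. That gene had between 305 and 510 counts per mouse, against 15838 to 23756 for Serpina1c.

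**Figure D2:**
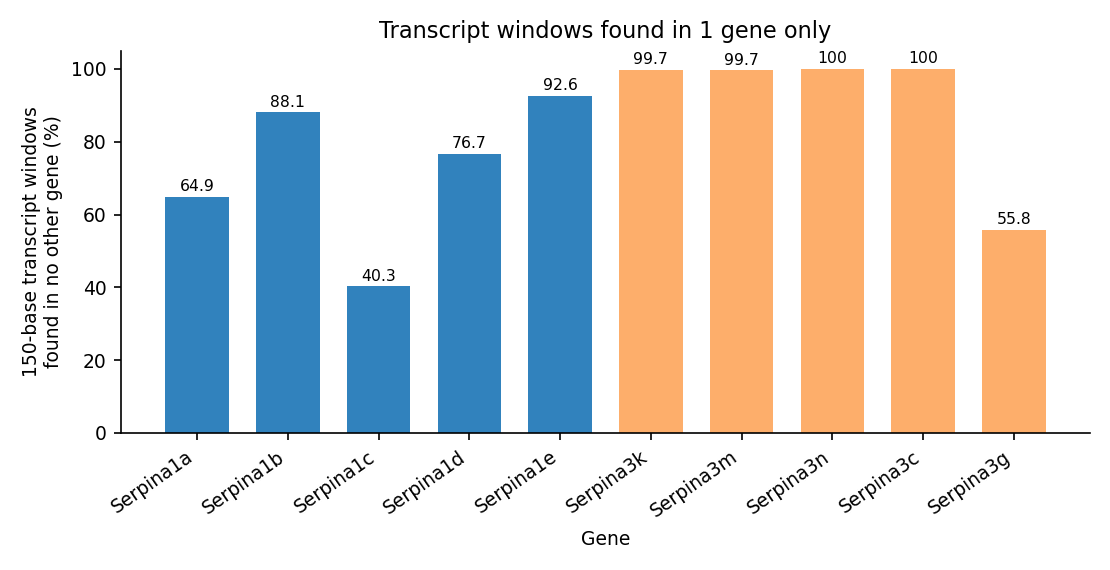
Percent of the 150-base windows of each member's transcripts that are found in no transcript of another gene, with Serpina1 members in blue and Serpina3 members in orange. Serpina1c had the lowest share, 40.3%, Serpina3g was at 55.8%, and the other 4 Serpina3 members were at 99.7% or above.

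Serpina1b (ENSMUSG00000071178, chr12:103728156-103830373), the second most abundant α1-antitrypsin gene, whose annotated span encloses Serpina1d, had normalized counts of 107582, 126023 and 126916 in the GalNAc-siNC mice and of 148956, 148863 and 144900 in the GalNAc-siRnf10 mice. Every treated mouse was above every control mouse, and the lowest value belonged to GalNAc-siNC mouse 1. The mean rose from 120174 ± 10914 to 147573 ± 2315 (SD, n = 3 mice each), a log2 fold change of 0.30 (standard error 0.0591, edgeR adjusted p = 0.0024; two-sided exact permutation p = 0.1, the lowest possible with 3 mice against 3).

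Serpina1d (ENSMUSG00000071177, chr12:103763594-103773592) had 61500.1, 56831 and 60387 normalized counts with GalNAc-siNC and 71898, 73025 and 72222 with GalNAc-siRnf10. The groups were well apart, and the treated mice differed from one another by less than the controls did. Its log2 fold change was 0.28 (standard error 0.0494, edgeR adjusted p = 0.00081). Serpina1b and Serpina1d were called higher in all 15 alternative fits.

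Serpina1a (ENSMUSG00000066366, chr12:103853589-103863562) had 43889.8, 43975 and 43216 normalized counts with GalNAc-siNC and 51619.9, 52756 and 47402 with GalNAc-siRnf10. The 3 controls lay close together and GalNAc-siRnf10 mouse 3 was the nearest to them, without overlap. The log2 fold change was 0.21 (standard error 0.0526, edgeR adjusted p = 0.0117). The call was lost without GalNAc-siRnf10 mouse 1 (adjusted p = 0.106) and without GalNAc-siRnf10 mouse 2 (adjusted p = 0.130), and by a narrow margin when library totals alone were used for scaling (adjusted p = 0.0504).

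Serpina1c (ENSMUSG00000079015, chr12:103894926-103904887) had 13787, 17666 and 19081 normalized counts with GalNAc-siNC and 22762, 22714 and 23073 with GalNAc-siRnf10. The controls were spread over a wide range, with GalNAc-siNC mouse 1 lowest, and the treated mice were nearly equal. Its log2 fold change of 0.44, which was 0.31 without that mouse, was the highest of the Serpina1 genes but also the least precise of them (standard error 0.109, edgeR adjusted p = 0.0357). The call was lost without GalNAc-siNC mouse 2 (adjusted p = 0.168) and without GalNAc-siRnf10 mouse 1, 2 or 3 (adjusted p = 0.0723, 0.0692 and 0.0732).

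Serpina1e (ENSMUSG00000072849, chr12:103946931-103958975), which supplied most α1-antitrypsin counts of these livers, was the only Serpina1 gene that was not called. Its normalized counts were 492947, 542773 and 507293 with GalNAc-siNC and 486295, 485887 and 492421 with GalNAc-siRnf10. The treated mice were all below the controls, by little. The log2 fold change was -0.075 (95% interval -0.17 to 0.024, edgeR adjusted p = 0.333), and it was called lower only when GalNAc-siNC mouse 1 was left out (log2 fold change -0.11, adjusted p = 0.0203).

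The sequences around the transcription starts are shared too. RefSeq promoters of GRCm38.p6, reaching from 250 bases before to 50 bases after the start, were found for 8 of the 10 members. Those of the 5 Serpina1 genes were 91.7% to 98.4% identical in pairs over aligned bases, with bases that have no partner left out. The 120 bases below are shown because 4 of these 5 genes were called and 1 was not. They were matched by sequence and not by distance from the start. The stretch begins 81, 86, 87 and 76 bases before the start of Serpina1a, Serpina1b, Serpina1c and Serpina1d and runs past it. For Serpina1e it begins 138 bases before the start and ends before it. Capitals mark the 17 positions at which the 5 genes were not all alike. Serpina1a is read from chr12:103863581-103863700, Serpina1b from chr12:103738156-103738275, Serpina1c from chr12:103904918-103905037, Serpina1d from chr12:103773590-103773709 and Serpina1e from chr12:103956916-103957035, all on the minus strand.
Serpina1a: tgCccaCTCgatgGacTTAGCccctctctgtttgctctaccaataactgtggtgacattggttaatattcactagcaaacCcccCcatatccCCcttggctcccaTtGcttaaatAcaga
Serpina1b: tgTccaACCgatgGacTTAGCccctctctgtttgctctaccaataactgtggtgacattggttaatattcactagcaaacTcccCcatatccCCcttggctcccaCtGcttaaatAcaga
Serpina1c: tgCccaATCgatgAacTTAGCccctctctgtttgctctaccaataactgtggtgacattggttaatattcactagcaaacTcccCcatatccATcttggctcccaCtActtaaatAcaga
Serpina1d: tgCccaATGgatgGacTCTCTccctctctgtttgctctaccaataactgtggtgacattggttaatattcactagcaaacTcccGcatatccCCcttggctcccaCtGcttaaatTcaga
Serpina1e: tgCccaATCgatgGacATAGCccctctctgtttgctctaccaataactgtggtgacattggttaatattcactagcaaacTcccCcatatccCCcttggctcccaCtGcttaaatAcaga

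The longest run without a difference spanned 59 bases, from position 22 to position 80 of the stretch, and it occurred on either strand in the promoters of these 5 genes and in no other of 32851 promoters. The letters TTGCNNAA of a C/EBP site, found on either strand in 10.8% of all promoters, occurred in Serpina1a, Serpina1b, Serpina1d and Serpina1e and not in the window of Serpina1c. The matches of Serpina1b, Serpina1d and Serpina1e lay before the start, from offsets -161, -149 and -211. That of Serpina1a was a different site, at offsets 24 to 31 after the start. There the other genes have C in place of its first T, and Serpina1a had no match before the start. Such matches describe letters and are not measured binding.

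Summed over the 5 genes, the α1-antitrypsin counts of the groups overlapped. The sum was 719706, 787267 and 756892 in the GalNAc-siNC mice and 781531, 783244 and 780019 in the GalNAc-siRnf10 mice, which was 2.50% to 2.68% of a library. The log2 ratio of the means was 0.051. Without Serpina1e, the sum of Serpina1a to Serpina1d was 226759, 244494 and 249600 with GalNAc-siNC and 295236, 297357 and 287598 with GalNAc-siRnf10. The mean of this sum was 22.1% higher. Its genes are those that were called higher, each with the groups apart, so the ranges of their sum had to be apart. A sum is unaffected by reads traded between its own genes. Serpina1e shares 101 to 108 windows with each of the others, so reads traded with it can move the sum that leaves it out. The pseudogene Gm8893, which also shares windows with these genes, is in neither sum.

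Shares within this pool were apart between the groups for 4 of the 5 genes. Serpina1e took 68.5%, 68.9% and 67.0% of the summed counts in the GalNAc-siNC mice and 62.2%, 62.0% and 63.1% in the GalNAc-siRnf10 mice, which was 5.69 percentage points lower. The share of Serpina1b was 15.9% ± 0.914 with GalNAc-siNC and 18.9% ± 0.265 with GalNAc-siRnf10, that of Serpina1d 7.91% ± 0.666 and 9.26% ± 0.0619, and that of Serpina1c 2.23% ± 0.303 and 2.92% ± 0.0306 (SD, n = 3 mice each). These 4 shares did not overlap between the groups (two-sided exact permutation p = 0.1, adjusted over 10 shares 0.125). As parts of the same sum, they depend on one another. The share of Serpina1a, 5.80% and 6.47%, overlapped between the groups (two-sided exact permutation p = 0.2, adjusted 0.222). When each gene's counts were divided by its number of unique windows, Serpina1e went from 65.8% to 59.7%. The divisor is the same in every mouse and the counts keep their shared reads. This changes the scale of the shares and is no test of read sharing. On that scale the share of Serpina1c was higher, 5.99% and 7.78%, and its difference went from 0.70 to 1.80 percentage points, while that of Serpina1b went from 2.97 to 1.87. Relative to Serpina1e within the same mouse, the log2 ratio of Serpina1b was -2.10 ± 0.0987 with GalNAc-siNC and -1.73 ± 0.0335 with GalNAc-siRnf10 (SD, n = 3 mice each), with no overlap.

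**Figure D3:**
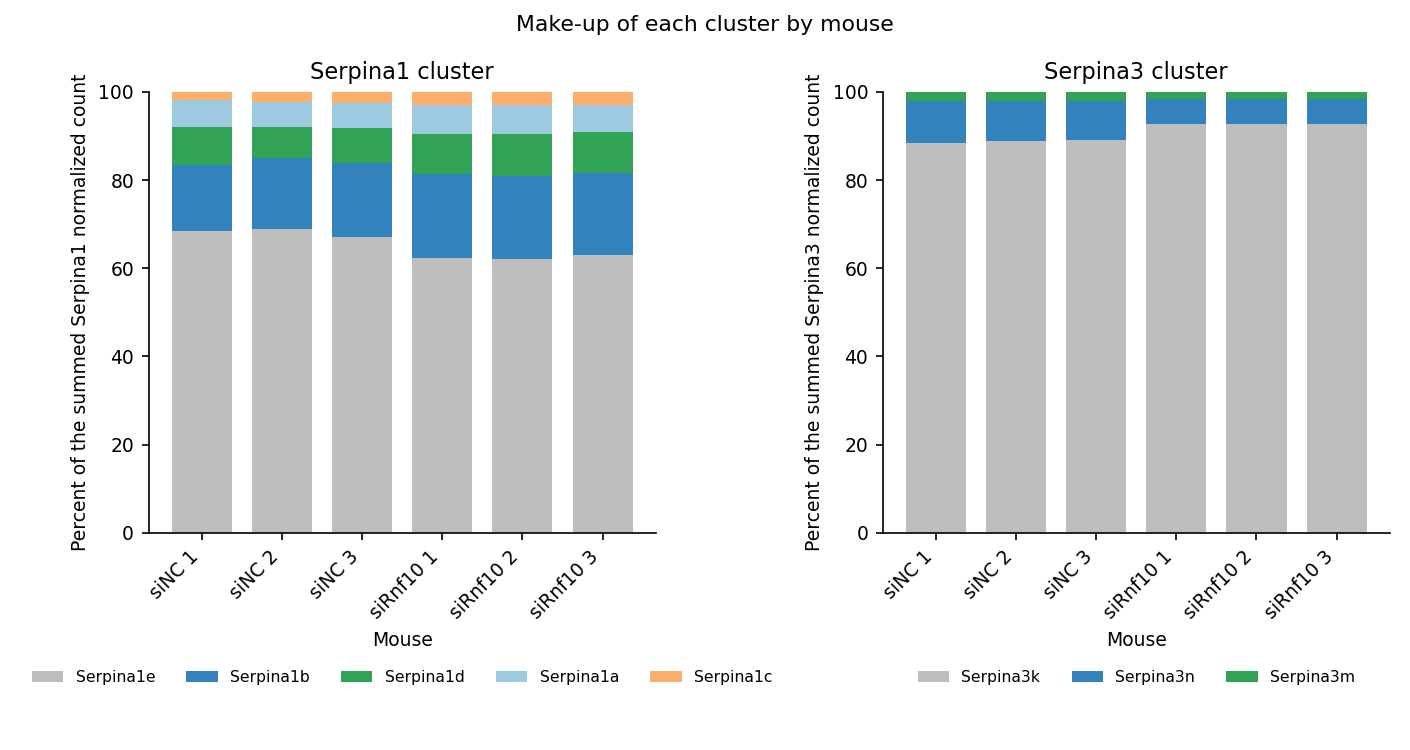
Percent of the summed normalized count of each cluster taken by each gene, with 1 bar per mouse; Serpina3c and Serpina3g are too low to be seen. Serpina1e went from 68.2% on average with GalNAc-siNC to 62.5% with GalNAc-siRnf10, and Serpina3k from 88.8% to 92.7%.

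The Serpina3 genes differed more from one another, with coding identities of 91.8% between Serpina3k and Serpina3m, 85.2% between Serpina3m and Serpina3n and 83.4% between Serpina3k and Serpina3n. The 75-base window with the most variable positions among these 3 genes was the end of the coding sequence with its stop codon, bases 1183 to 1257, in which 27 positions varied against a median of 10 per window. It is shown because these letters separate the reads of the 2 genes that fell from those of the one that did not. It lies in exon 5 on the plus strand at chr12:104345347-104345421 for Serpina3k, chr12:104393853-104393927 for Serpina3m and chr12:104413532-104413606 for Serpina3n, and capitals mark the positions at which the 3 genes are not all alike.
Serpina3k: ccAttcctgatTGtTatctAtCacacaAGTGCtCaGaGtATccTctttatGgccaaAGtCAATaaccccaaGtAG
Serpina3m: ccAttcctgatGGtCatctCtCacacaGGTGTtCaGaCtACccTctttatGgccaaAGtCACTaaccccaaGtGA
Serpina3n: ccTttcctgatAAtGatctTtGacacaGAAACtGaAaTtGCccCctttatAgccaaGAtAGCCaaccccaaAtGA

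Serpina3n (ENSMUSG00000021091, chr12:104406729-104414329), an inhibitor that rises in the acute phase response, changed most among the members that were called. Its normalized counts were 46002, 44458 and 41100.0 in the GalNAc-siNC mice and 26553, 26558 and 25377 in the GalNAc-siRnf10 mice. The groups were far apart, and the treated mice lay within a narrow range. The mean went from 43853 ± 2506 to 26163 ± 680.4 (SD, n = 3 mice each), a log2 fold change of -0.75 (standard error 0.0547, edgeR adjusted p = 4.6e-08; two-sided exact permutation p = 0.1).

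Serpina3m (ENSMUSG00000079012, chr12:104338486-104394257) had normalized counts of 10367, 9856 and 9427 with GalNAc-siNC and of 7408, 7363 and 7007 with GalNAc-siRnf10. The groups did not overlap. Its log2 fold change was -0.45 (standard error 0.0577, edgeR adjusted p = 4.2e-05). Both genes were called lower in all 15 alternative fits, with log2 fold changes between -0.79 and -0.71 for Serpina3n and between -0.49 and -0.41 for Serpina3m. The gene model of Serpina3m begins at the same base as that of Serpina3k and shares 60 exon bases with it.

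Serpina3k (ENSMUSG00000058207, chr12:104338486-104346144), also known as contrapsin, had 434135, 431432 and 418135 normalized counts with GalNAc-siNC and 428059, 431371 and 417938 with GalNAc-siRnf10. The groups lay within the same range. The log2 fold change was -0.0071 (95% interval -0.10 to 0.086, edgeR adjusted p = 0.939), and no alternative called it. Relative to Serpina3k within the same mouse, the log2 ratio of Serpina3n went from -3.29 ± 0.0548 to -4.02 ± 0.0156 and that of Serpina3m from -5.44 ± 0.0434 to -5.87 ± 0.0229 (SD, n = 3 mice each), both without overlap. The log2 ratio of Serpina3n to Serpina3m was 2.15 ± 0.0246 with GalNAc-siNC and 1.85 ± 0.0075 with GalNAc-siRnf10, again without overlap.

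Summed over the 5 genes, the Serpina3 counts were 490549, 485795 and 468728 with GalNAc-siNC and 462082, 465348 and 450401 with GalNAc-siRnf10. The treated mice were all lower, and the log2 ratio of the means was -0.069. Serpina3k made up most of the sum, with 88.8% ± 0.354 of it with GalNAc-siNC and 92.7% ± 0.0783 with GalNAc-siRnf10. The share of Serpina3n was 9.10% ± 0.308 and 5.70% ± 0.0569, and that of Serpina3m 2.05% ± 0.0546 and 1.58% ± 0.0237 (SD, n = 3 mice each; two-sided exact permutation p = 0.1 for each of the 3 genes, adjusted over 10 shares 0.125). Parts of a sum depend on one another. As the counts of Serpina3k overlapped between the groups, its higher share follows from the lower counts of Serpina3n and Serpina3m and is no separate result.

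Serpina3g and Serpina3c were the lowest members in these livers. Serpina3g (ENSMUSG00000041481, chr12:104236245-104241939), an intracellular inhibitor of leukocytes that blocks lysosomal cathepsins, had raw counts of 30, 26 and 37 with GalNAc-siNC and of 38, 45 and 46 with GalNAc-siRnf10. Its normalized counts were 26.1, 26.8 and 36.6 against 43.0, 43.0 and 49.0, which did not overlap. The log2 fold change of 0.59 was not called (95% interval -0.0034 to 1.19, edgeR adjusted p = 0.190). ENSMUSG00000118588, on the same strand, covers 55.6% of its exons and had no counts in any mouse. Serpina3c (ENSMUSG00000066361, chr12:104146382-104153870) had raw counts of 22, 22 and 30 with GalNAc-siNC and of 17, 14 and 28 with GalNAc-siRnf10, which overlapped. Its log2 fold change was -0.20 (95% interval -1.01 to 0.61, edgeR adjusted p = 0.791). In every library more genes had exactly 2 counts (1767 to 1847 genes) than exactly 1 (956 to 1051 genes), and whether each read of a pair was counted is not given in the sources used here.

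The promoters of Serpina3n and Serpina3c are shown because they are 93.5% identical while the genes differed widely in level, with mean normalized counts of 43853 and 23.8 with GalNAc-siNC. The RefSeq windows of 300 bases are chr12:104406458-104406757 on the plus strand and chr12:104153823-104154122 on the minus strand of GRCm38.p6, and capitals mark the 25 bases of each that differ from the other or have no partner in the alignment. The letters TTCNNNGAA of a STAT site, present in 8.30% of all promoters, were in neither. They were found in the promoter of Serpina3g alone among the 8 members with a promoter entry.
Serpina3n: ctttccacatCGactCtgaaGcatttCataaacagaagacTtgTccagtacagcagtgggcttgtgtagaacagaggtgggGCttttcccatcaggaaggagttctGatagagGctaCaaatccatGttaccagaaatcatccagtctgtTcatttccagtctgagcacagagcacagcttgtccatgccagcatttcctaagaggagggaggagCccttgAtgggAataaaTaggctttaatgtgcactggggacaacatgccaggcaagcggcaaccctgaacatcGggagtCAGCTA
Serpina3c: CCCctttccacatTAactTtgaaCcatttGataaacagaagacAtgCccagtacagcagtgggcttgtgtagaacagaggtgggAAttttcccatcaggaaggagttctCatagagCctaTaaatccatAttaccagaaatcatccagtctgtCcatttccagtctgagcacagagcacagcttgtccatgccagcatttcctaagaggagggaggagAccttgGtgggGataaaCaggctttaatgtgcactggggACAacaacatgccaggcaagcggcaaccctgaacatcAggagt

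Levels were compared between genes as normalized counts per kilobase of gene model. With GalNAc-siNC the order was Serpina1e (318081 ± 15862), Serpina3k (208022 ± 4164), Serpina1b (49761 ± 4519), Serpina1d (42735 ± 1750), Serpina1a (23850.2 ± 227), Serpina3n (21247 ± 1214), Serpina1c (12377 ± 2014), Serpina3m (5749 ± 274), Serpina3g (14.2 ± 2.77) and Serpina3c (10.8 ± 2.41; SD, n = 3 mice each). Only Serpina3g and Serpina3c, as neighbours in this order, had ranges that overlapped. Serpina1e ranked 4th and Serpina3k 9th among all genes in both groups. Serpina3n went from rank 67 to rank 120 and Serpina1c from rank 123 to rank 95. On this scale the level of Serpina3n with GalNAc-siRnf10, 12676 ± 330 per kilobase, was below that of Serpina1c, 16789 ± 143. The order depends on the whole gene model as divisor and on how shared reads were counted, as only 40.3% of Serpina1c windows were unique. Per unique window, the GalNAc-siNC share of Serpina1d in its cluster, 10.9%, was above that of Serpina1b, 10.7%.

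The members span 686174 bases, from chr12:103728156 to 104414329, and 17 of the 36 genes annotated in that span were tested. Of these 17, 4 were called higher, all of them Serpina1 members, and 5 lower. The called genes that are no members were Gm8893, a pseudogene that shares windows with each of the 5 Serpina1 genes (log2 fold change -0.41, edgeR adjusted p = 0.0093), Serpina9 (-0.45, adjusted p = 0.0422) and the pseudogene Serpina4-ps1 (-0.39, adjusted p = 0.00053). The call of Gm8893 was lost without GalNAc-siNC mouse 3 (adjusted p = 0.0526) or GalNAc-siRnf10 mouse 3 (adjusted p = 0.0745). That of Serpina9 was lost in DESeq2 (adjusted p = 0.0532) and without any 1 mouse except GalNAc-siNC mouse 1 (adjusted p = 0.0712 to 0.199). The 4 genes called higher lay in chr12:103728156-103904887, as did Gm8893, and the other 4 called lower in chr12:103994743-104414329. Within 1 Mb on either side, 21 genes were tested, of which Serpina6 was called higher and Serpina10 and Ppp4r4 lower. The median log2 fold change was -0.075 inside the span, 0.040 outside it and 0.0022 over all tested genes.

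**Figure D4:**
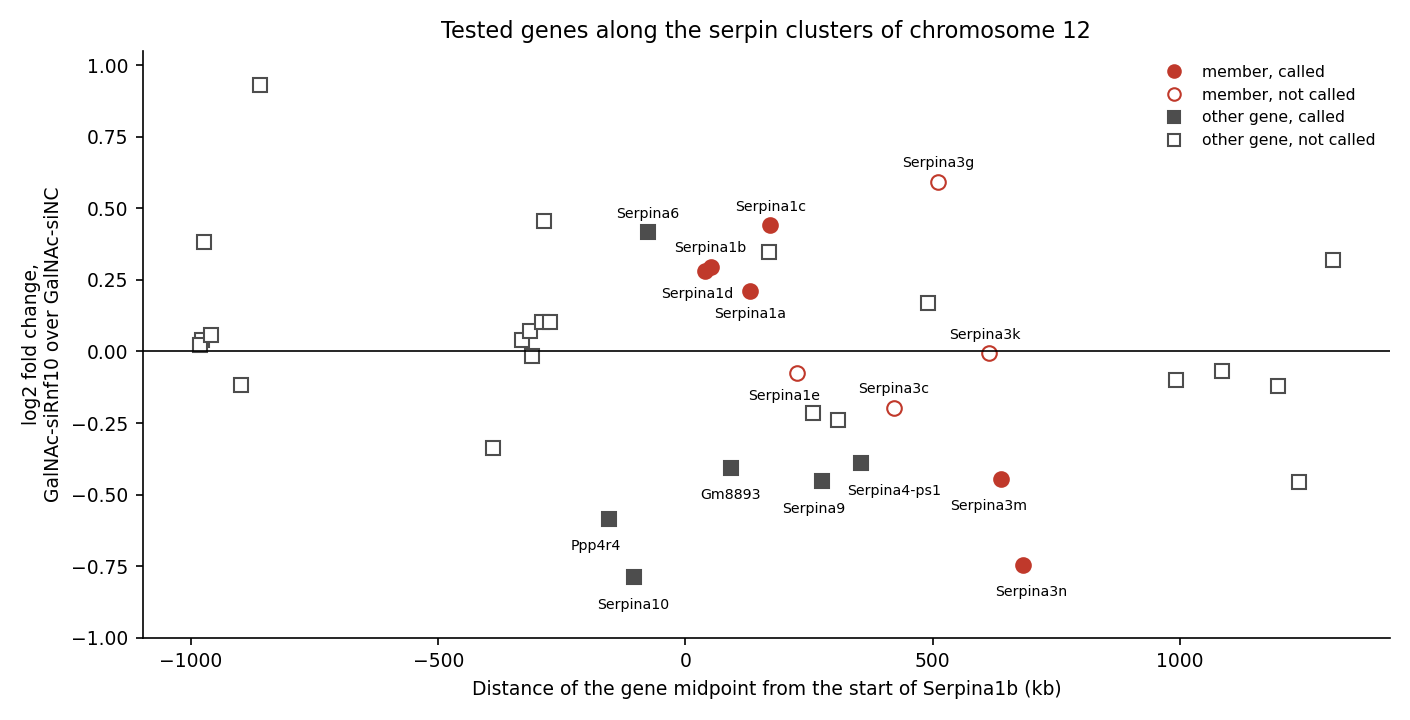
Log2 fold change of every tested gene within 1 Mb of the clusters against the distance of its midpoint from the start of Serpina1b in kb, with members as red circles, other genes as grey squares and called genes filled. Serpina1a to Serpina1d are above 0 and Serpina3m and Serpina3n below it, and of the genes outside the members' span only Serpina6, Serpina10 and Ppp4r4 are filled.

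Of 15 other clade A serpins of the region, 7 were tested, with 1 called higher and 3 lower. Serpina10, the protein Z-dependent inhibitor of coagulation, fell from 17104 ± 459 to 9897 ± 69.9 normalized counts (SD, n = 3 mice each), a log2 fold change of -0.79 (edgeR adjusted p = 1.4e-08). Its log2 ratio to Serpina3n was -1.36 ± 0.104 with GalNAc-siNC and -1.40 ± 0.0462 with GalNAc-siRnf10, and the ranges overlapped. Serpina6, the plasma carrier of corticosteroids, rose from 4817 ± 184 to 6429 ± 43.5 (log2 fold change 0.42, edgeR adjusted p = 8.6e-05). Serpina11 (-0.21), Serpina12 (-0.24) and Serpina3f (0.17) were not called. Without GalNAc-siNC mouse 1, Serpina11 and Serpina12 were called lower (log2 fold changes -0.31 and -0.34, adjusted p = 0.0014 and 0.00011).

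**Figure D5:**
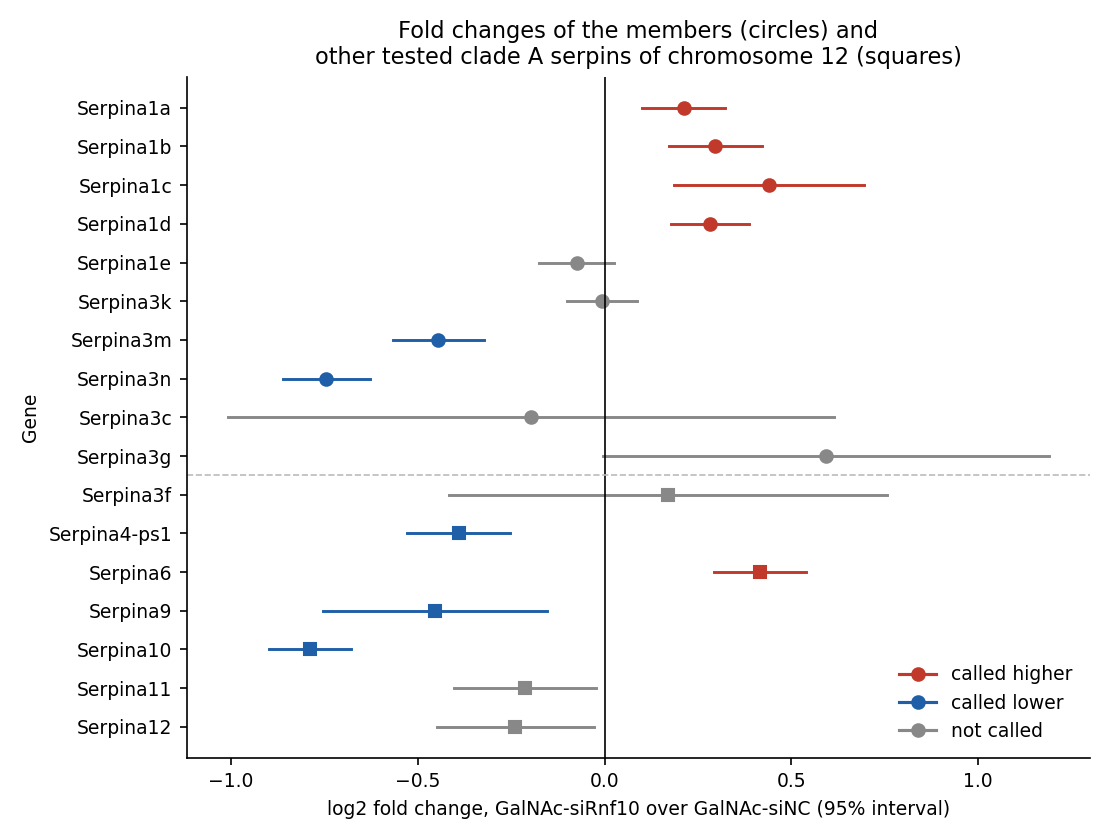
Log2 fold change of GalNAc-siRnf10 over GalNAc-siNC with its 95% interval for the 10 members (circles) and for 7 other tested clade A serpins of the region (squares), in red where called higher, blue where called lower and grey where not called. Serpina1a to Serpina1d and Serpina6 lie above 0, and Serpina3m, Serpina3n, Serpina4-ps1, Serpina9 and Serpina10 below it.

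Serpins encoded elsewhere were compared with the members. On a list of mainly secreted serpins, 10 were tested, with none called higher and 4 called lower. The 4 were Serpina7, the thyroxine carrier (log2 fold change -0.55), Serpine2, an inhibitor of thrombin and urokinase (-0.51), Serpinf2, the plasmin inhibitor α2-antiplasmin (-0.33), and Serping1, the complement C1 inhibitor (-0.32). Antithrombin, encoded by Serpinc1, had 58755 ± 1345 and 60554 ± 1242 normalized counts (SD, n = 3 mice each) and was not called. Of 5 tested intracellular clade B serpins, Serpinb1a, Serpinb6a, Serpinb6b, Serpinb8 and Serpinb9, none was called, with log2 fold changes between -0.23 and 0.38.

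Of 16 genes for serine proteases of neutrophils, mast cells, lymphocytes and pancreas, which such inhibitors act on, 3 were tested. Elane, the neutrophil elastase gene, had at most 15 counts in a mouse and was not tested, and Ctsg, the gene of cathepsin G, had 0 counts in every mouse. Prtn3, the gene of proteinase 3, fell from 648 ± 146 to 269 ± 22.8 normalized counts (log2 fold change -1.26, edgeR adjusted p = 0.000155), and Cela1, an elastase gene, rose from 586 ± 119 to 876 ± 39.3 (SD, n = 3 mice each; log2 fold change 0.58, adjusted p = 0.0070). The third, Cela2a, was not called (0.0060). Among 9 kallikrein and coagulation proteases only Plg, the plasminogen gene, was called (-0.31), and among 9 cysteine cathepsins only Ctsc (-0.61), which activates neutrophil serine proteases.

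Of 22 genes for hepatocyte transcription factors and signalling, 2 were called higher and 7 lower. Foxa1 (log2 fold change -0.81), Foxa2 (-0.53), Stat3 (-0.53), Stat5a (-0.71), Stat5b (-0.35), Irf1 (-0.63) and Socs3, a feedback inhibitor of STAT3 signalling (-1.37), fell. Il6ra, the interleukin-6 receptor (0.55), and Ghr, the growth hormone receptor (0.20), rose, and the call of Ghr was lost in 8 of 15 alternative fits. Hnf4a, with 13741 ± 411 and 14533 ± 198 normalized counts (SD, n = 3 mice each), was not called.

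A list of genes for secretion of α1-antitrypsin and for disposal of its misfolded form in the endoplasmic reticulum also held Lrp1, which belongs to neither. Of its 16 tested genes, none was called higher and 8 were called lower. These were Lrp1, a receptor that clears serpin complexes (log2 fold change -0.56), Sec24d (-0.39) and Sec23b (-0.25) of COPII transport vesicles, the chaperone gene Calr (-0.34), Uggt1 (-0.30), Syvn1 (-0.30), Sel1l (-0.28) and Edem1 (-0.20). The calls of Sec23b, Sel1l and Edem1 were lost without any 1 of the GalNAc-siRnf10 mice, that of Sec23b also without GalNAc-siNC mouse 2, and that of Syvn1 without GalNAc-siRnf10 mouse 1 or 3, with adjusted p between 0.0508 and 0.153. Lman1 and Mcfd2, whose products form the receptor that carries α1-antitrypsin out of the endoplasmic reticulum, had log2 fold changes of -0.066 and 0.054 and were not called. Of 22 other acute phase plasma proteins, 20 were called lower and none higher, of which Saa1, Saa3, Orm1 and Orm3 lost the call without GalNAc-siNC mouse 2 (edgeR adjusted p = 0.0982, 0.0785, 0.0667 and 0.0822). Saa1 also lost it without any 1 GalNAc-siRnf10 mouse (adjusted p = 0.0589 to 0.0661) and with no filter on low counts (0.0539), and Orm3 without GalNAc-siNC mouse 3 (0.0940) and without any 1 GalNAc-siRnf10 mouse (0.0550 to 0.161). The list had a median log2 fold change of -0.76, close to the -0.75 of Serpina3n. The median of the 5 Serpina1 members was 0.28.

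Profiles over the 6 mice were compared for 10937 genes by the root mean square difference of mean-centred log2 normalized counts. The genes most like the Serpina1 sum were Txndc15, Dock5, Atp6v1e1, Cyp4f14 and Nadsyn1 (0.015 to 0.019), and those most like the Serpina3 sum were Nars, Ctsa, Stk25, Slc27a2 and Bri3bp (0.014 to 0.019). None of these 10 was called. The genes most like Serpina3n, a comparison added after its values were seen, were Sqle, Itih4, Tifa, Sh3pxd2a and Erbb3 (0.031 to 0.042).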

How the data were processed

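Stranded mRNA libraries were read from both ends over 150 bases. The authors aligned the reads to GRCm38 (mm10) using HISAT2, and the deposited table holds raw counts without normalization. The counting tool, annotation release and strand setting are not given in the sources used here. Members matched GENCODE M21 in start, end and strand, as did 54907 of 55487 genes; 346 had no symbol. Here the counts were filtered (filterByExpr), scaled by TMM and tested with edgeR 4.0.16 in R 4.3.3 (robust quasi-likelihood fit, treatment as covariate, Benjamini-Hochberg adjustment over 14046 genes), after a test on simulated data. Standard errors come from the F statistic and 95% intervals from the t distribution with the fit's degrees of freedom. Replicates of a group differed by more than sampling noise (chi-square per gene 4.70 to 30.7, highest for GalNAc-siNC mouse 1). Transcripts came from GENCODE M21 and promoters from RefSeq GRCm38.p6, with Python 3.11.15, biopython 1.88 and matplotlib 3.10.9.

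The members, the lists of other genes and the tests were chosen with earlier results of these data known. Named genes were the members, Rnf10, called genes of the lists (every tested gene where 8 or fewer were tested), tested genes between the outermost members, and for each cluster the 5 genes with the most similar profile at a mean normalized count of at least 50. Serpina10 as a partner for a ratio, Elane, Ctsg, Hnf4a, Serpinc1, Lman1, Mcfd2, Ppp4r4 and the genes most like Serpina3n were named after their values were seen. Some genes of the list of hepatocyte factors are not reported here and were left out of its counts. The alternatives were RLE, upper-quartile and library-total scaling, other filters, leaving out the 20 most abundant genes that are no members, DESeq2 1.42.0, limma 3.58.1 voom with quality weights, the replicate block, other thresholds and leaving out each mouse. The labels do not state separate litters or cages, so p-values measure the spread between these mice.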

Additional observations from a re-analysis of the deposited data

How the results depend on the processing

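The members called stayed at 4 higher and 2 lower with RLE and upper-quartile factors, both other filters, without the 20 most abundant genes other than members, in DESeq2 and in limma voom. With library totals only, 3 were called higher, and the summed Serpina3 log2 ratio went from -0.069 to -0.12 and that of Serpina1 from 0.051 to 0.0041. At an adjusted p under 0.01, 2 members were called higher and 1042 genes in all. Where a log2 fold change of 1 or more in size was also required, 0 members were called higher, 0 lower and 227 genes in all. Leaving out 1 mouse at a time gave 2 to 4 members higher, 2 to 3 lower and 1053 to 2864 genes, with a summed log2 ratio of 0.018 to 0.082 for Serpina1 and of -0.088 to -0.055 for Serpina3. The values 2, 2 and 3 members higher and 1053, 1128 and 1128 genes were those without GalNAc-siRnf10 mouse 1, 2 or 3. Of 85 genes followed over 15 alternatives, most kept their direction and their side of the threshold, 1189 values in all, and 47 lost a call, 10 gained one and 24 turned direction.

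The direction turned only for genes that were not called. In limma voom, Serpina3k went to 0.0028, Serpinb6a to -0.047 and Cela2a to -0.11. Library totals gave -0.014 for Serpinb6a, -0.040 for Cela2a, -0.0098 for Txndc15, -0.0052 for Dock5, -0.012 for Atp6v1e1 and -0.0091 for Nadsyn1, and upper-quartile factors -0.0035 for Cela2a. Without 1 mouse at a time, the log2 fold change lay between -0.027 and 0.0058 for Serpina3k, -0.55 and 0.050 for Serpina3c, -0.027 and 0.32 for Serpina3f, -0.14 and 0.13 for Serpinb6a, -0.11 and 0.28 for Serpinb6b, -0.22 and 0.19 for Cela2a, and -0.0058 and 0.065 for Nadsyn1. The cause was not tested.

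The mice of the groups share numbers in the labels but are different animals, and the deviations of same-numbered mice correlated by -0.0026, 0.023 and -0.033, so the numbers were not taken to pair them. With the replicate number as a block, the same counts of members were called, 4 higher and 2 lower, with 1816 genes in all, and Cela2a went to -0.0070.

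Depth limits Serpina3c and Serpina3g, whose counts of 14 to 46 per library leave wide intervals. Shared windows limit Serpina1a, Serpina1c and Serpina3g. With 3 mice against 3, an exact permutation test cannot give a p under 0.1.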
